A study of Mus musculus with 9 samples.

Results

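Long noncoding RNAs are transcripts, many of them spliced and polyadenylated like messenger RNA, that are not annotated as coding for a protein. In the liver gene counts, 316 of them had a mean of at least 1 CPM over all 9 libraries, where CPM is the count scaled to a common library total. They were selected on their annotated type and on that measured level, and not on the difference between groups, so their levels are given as a description. They come from 8656 genes that GENCODE release M21 types as lincRNA or antisense, in a table of 54393 genes. Of the 316, 209 were typed as lincRNA, a class meant for RNAs between protein-coding genes, and 107 as antisense, meant for RNAs opposite another gene. By position, 120 of the 316 overlapped the body of their nearest protein-coding gene. No gene of the table carried the type lncRNA itself, and 3284 of the 8656 genes had a count in some library.

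The study asked what the gut microbiota does to liver transcription. The antibiotics group held 4 libraries from mice given non-absorbable antibiotics to deplete their gut bacteria, numbered 1, 2, 3 and 5. The control group held 5 libraries from conventional mice without antibiotics, numbered 1 to 5. Both groups were labelled strain C56Bl/6j on diet AIN-76a, a purified diet, and whole liver was used. No label names the antibiotics, their duration, or the age or sex of the mice, and none ties a library to 1 animal. The p-values therefore rest on the variation among libraries, part of which may be technical.

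Some long noncoding RNAs act where they are made, by opening or closing the chromatin of neighbouring genes or by the act of transcription itself. Others leave their gene and bind proteins: Neat1 is the scaffold of the nuclear bodies called paraspeckles, and Malat1 collects in nuclear speckles with splicing factors. Several are only the carriers of microRNAs or small nucleolar RNAs, which are cut from their introns or exons. In mouse liver, one that has been studied by knockdown is lncLSTR, a liver-enriched RNA whose loss lowered plasma triglycerides, through the RNA-binding protein TDP-43, the bile acid enzyme Cyp8b1, the bile acid receptor FXR and the lipase cofactor apoC2.

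The label long noncoding was checked against a second annotation. RefSeq (GRCm38.p6) held a unique entry for 199 of the 316 genes and typed 185 of them as lncRNA. It typed 8 as protein-coding, of which 1810058I24Rik is one, and 6 as pseudogenes, transcribed or not. Among those 6 were Gm42418, Gm14097 and 4632415L05Rik. Markers of hepatocytes (7 genes such as Alb, albumin) summed to between 84544 and 94496 CPM in antibiotics libraries and between 86354 and 99489 CPM in control libraries, without a gene that passed the test described below. Over 11 marker lists of liver, blood, fat and pancreas cells, 0 of 54 tested genes passed with edgeR, DESeq2 or limma-voom (5 at an unadjusted p under 0.05 with edgeR). The 8 Kupffer cell and macrophage genes summed to between 164 and 211 CPM with antibiotics and between 161 and 486 CPM in control. Of these 8, 0 had a log2 fold change (antibiotics over control) above 0, with a median of -0.44. With edgeR 0 of them had an unadjusted p under 0.05.

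Library totals ran from 15422891 to 59179622 counts with antibiotics and from 28156248 to 49628737 in control. Antibiotics libraries 1, 2 and 3 were shallower than every control library, and antibiotics library 5 was the deepest of all. At the shallowest total, 3 counts are worth 0.195 CPM, so a gene at the threshold of 1 CPM rested on few reads there. From here on CPM values are scaled by TMM factors, which correct for differences in library composition, and each error of a mean level is the SD of its group.

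Most of these RNAs were scarce. Their mean level was 2.86 CPM at the median, with quartiles of 1.55 and 6.4 CPM, and only 52 of 316 reached 10 CPM and 8 reached 100 CPM. The 2 most abundant, Gm42418 and AC160336.1, made up 53.4% of the summed level of all 316. Their exons were shorter than those of protein-coding genes that could be tested (median 2138 nt against 4457 nt), with a median of 3 exon blocks against 10. Just inside the threshold lay 5330426L24Rik at 1.003 CPM, 4930404H11Rik at 1.004 CPM and 1700080G11Rik at 1.005 CPM. Just outside it lay 0610040B10Rik at 0.9926 CPM, Gm13522 at 0.9827 CPM and Gm29650 at 0.9814 CPM. A mean of at least 1 CPM was reached in both groups by 299 of the 316, in the antibiotics group alone by 13 and in the control group alone by 4.

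Gm42418, which RefSeq lists as the ribosomal RNA related sequence Rn18s-rs5, was set apart by a single library. Its level was 1244, 1223, 1306 and 8281 CPM in antibiotics libraries 1, 2, 3 and 5, against 2327, 2110, 1529, 1338 and 1492 CPM in control libraries 1 to 5. The fitted difference was 0.78 ± 0.54 on the log2 scale (SE, adjusted p = 0.475 by edgeR's quasi-likelihood test), and without antibiotics library 5 it was -0.48. CT010467.1, a gene of type rRNA on the opposite strand at the same place, also had its highest level in antibiotics library 5 (2.45 CPM, against at most 0.891 CPM elsewhere). With Gm42418 and AC160336.1 left out, the other 314 RNAs were summed without TMM factors. Together they came to 3146, 3392, 3043 and 3431 CPM in antibiotics libraries, and to 2427, 2455, 3046, 3049 and 2224 CPM in control libraries.

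AC160336.1 was annotated as 1 exon of 93147 nt that shares sequence with 89 other genes, so its counts could belong to many places. It had a mean of 1055 ± 142 CPM with antibiotics and 931 ± 199 CPM in control (SD, n = 4 and 5), a difference of 0.18 ± 0.15 on the log2 scale (adjusted p = 0.575). Per kilobase of exon the order of levels changed, with Gm42418 at 1265 CPM per kb, Gm48275 at 448, Gm20186 at 139, Gm12840 at 114 and AC160336.1 at 10.6. Malat1 stood at 24 CPM per kb and Neat1 at 2.63.

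**Figure D1:**
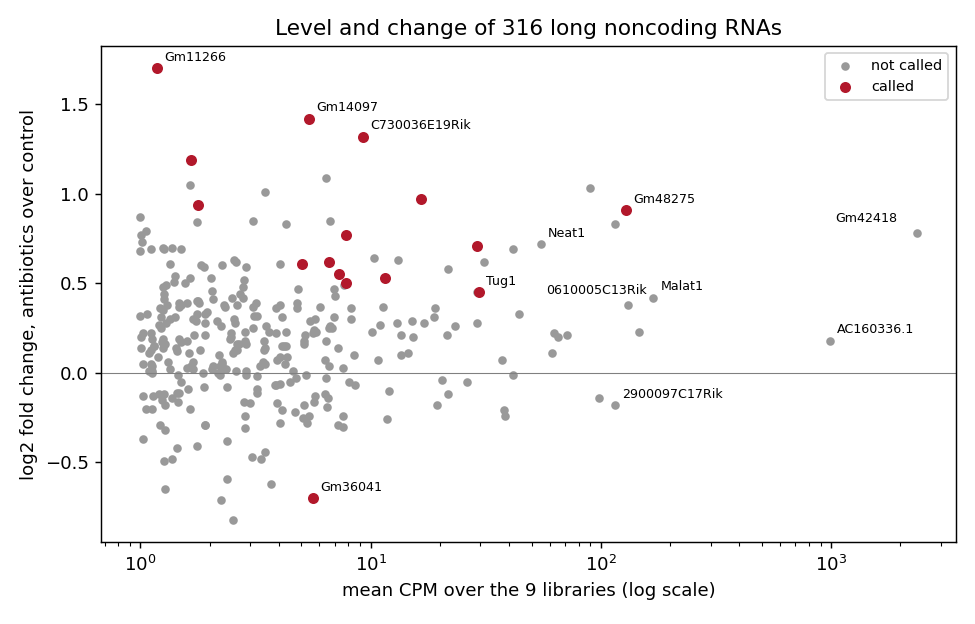
Each point is 1 of the 316 long noncoding RNAs, with its mean CPM over the 9 libraries on a log scale (x) and its fitted log2 fold change, antibiotics over control (y); red points passed the test at an adjusted p under 0.05. The red points lie between 1.18 CPM (Gm11266) and 129 CPM (Gm48275), and all but Gm36041 lie above 0.

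Between the groups, 16 of the 316 RNAs passed edgeR's quasi-likelihood test at a Benjamini-Hochberg adjusted p under 0.05, which is 5.06% of them. Among all 14873 genes tested, 398 passed, or 2.68%. Of the 16, 15 were higher with antibiotics (4.75%, against 1.63% of all genes) and 1, Gm36041, was lower (0.316%, against 1.05% of all genes). The 15 rises ran from 1.37-fold to 3.25-fold. All 16 genes kept their direction when each library was left out in turn, but 4 of the 16 still passed in at least 5 of the 9 such fits. Leaving out antibiotics library 5 left 0 of the 316 past the threshold (60 at an unadjusted p under 0.05), and the count was 2 without antibiotics library 1 and 1 without antibiotics library 3. Of all genes, 36 (0.242%), 53 (0.346%) and 56 (0.366%) passed without antibiotics libraries 5, 1 and 3. DESeq2 called 32 of the 316, the 16 included, which is 10.2% of the 315 for which it gave a p-value. Of all genes it called 976, or 3.61% of 27005. That is a wider set than the 14873 of edgeR, since low counts were not filtered out beforehand. The edgeR and DESeq2 shares of all genes therefore have unlike bases. With limma-voom there were 18 of the 316 (5.7%), beside 413 of all genes (2.78%).

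Among the 299 RNAs with a mean of at least 1 CPM in both groups, 15 passed, 14 higher and 1 lower. In all 691 long noncoding genes that could be tested, including those under 1 CPM, 23 passed, 20 higher and 3 lower, which is 3.33%. Antibiotics and control libraries did not overlap at all in 34 of the 316 (10.8%, against 8.88% of all genes), 31 of them higher with antibiotics (4.59% of all genes were) and 3 lower (4.29% of all genes were). Of those 34, 12 were among the 16 that passed.

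**Figure D2:**
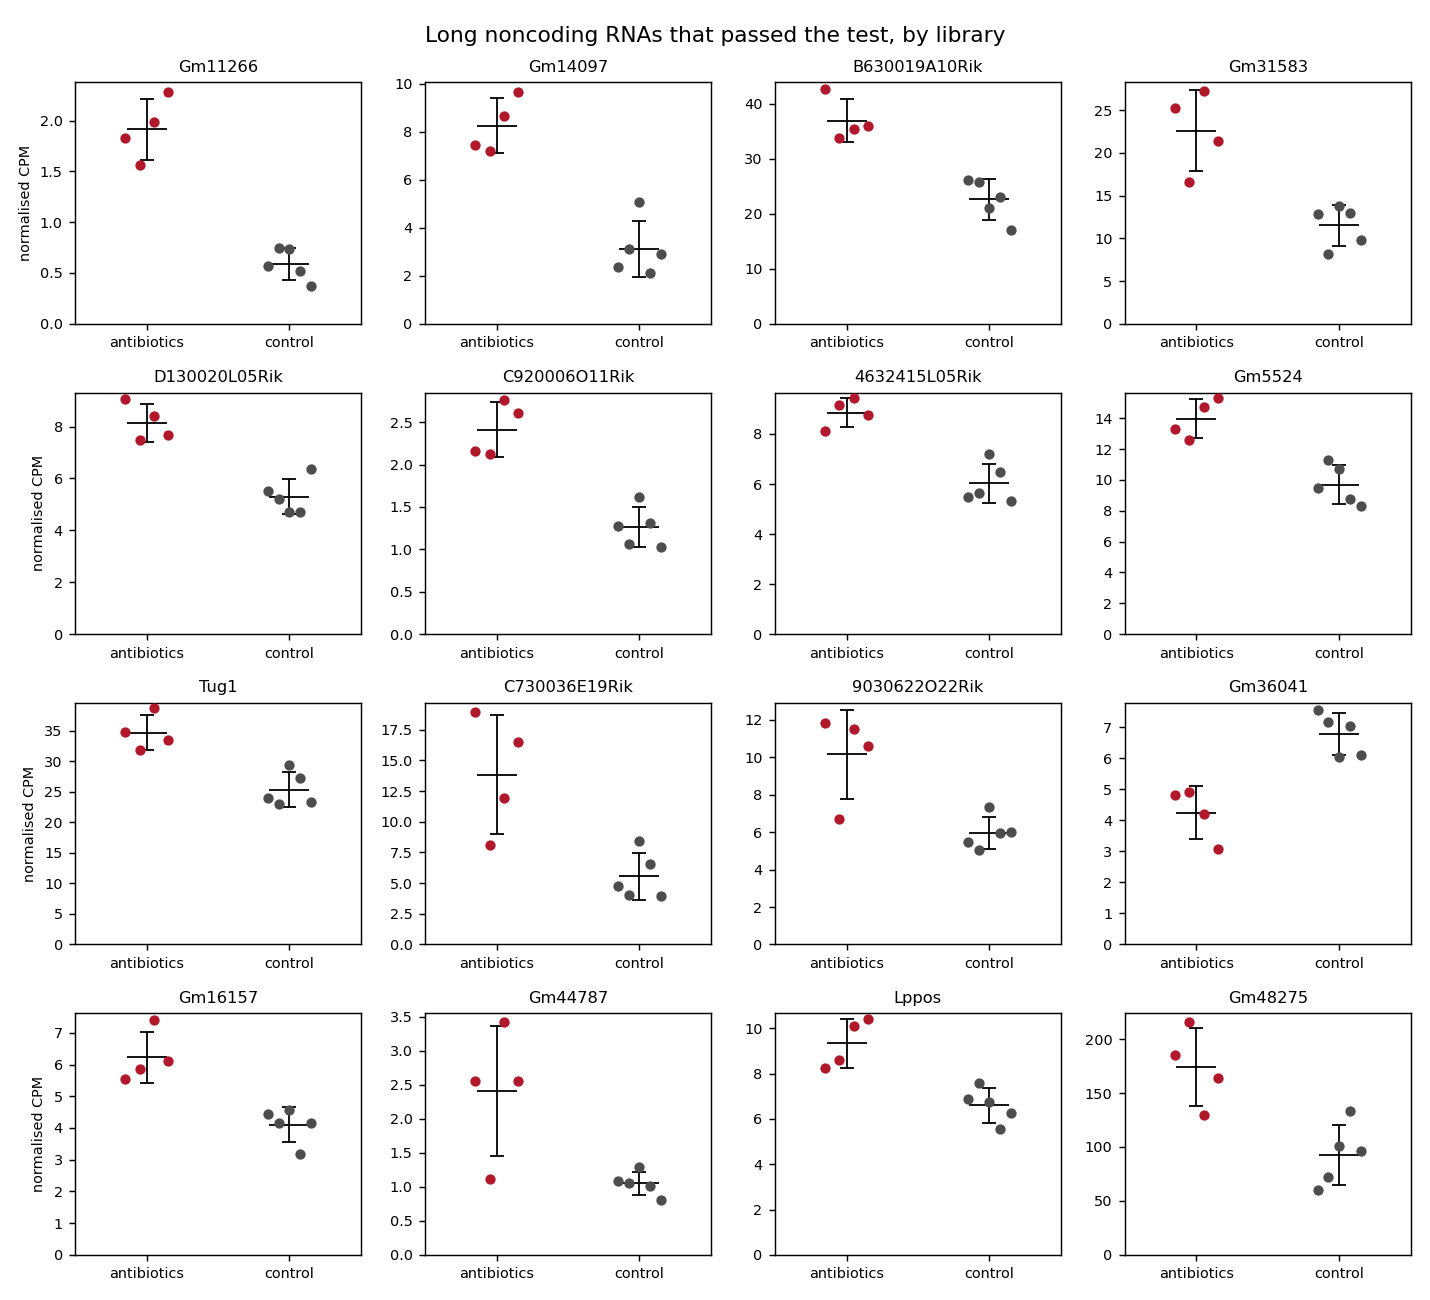
Each panel shows 1 of the 16 long noncoding RNAs that passed the test, in normalised CPM from 0, with the antibiotics libraries (red, n = 4) left of the control libraries (grey, n = 5); a bar marks the mean and whiskers the SD. The groups do not overlap in 12 panels and overlap in C730036E19Rik, 9030622O22Rik, Gm44787 and Gm48275.

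The antisense RNAs held the largest rises. Gm11266 (ENSMUSG00000087413.1, GRCm38 chromosome 4, 82508016 to 82547292) lies inside the gene of Nfib, a nuclear factor I transcription factor, on the other strand, with no exon overlapping an exon of Nfib. Its level was 1.83, 1.56, 1.99 and 2.28 CPM in antibiotics libraries, against 0.568, 0.748, 0.735, 0.521 and 0.367 CPM in control libraries. It thus met the level of 1 CPM through the antibiotics group alone, and is not among the 299 RNAs that reached it in both groups. Every antibiotics library lay above the highest control, and the change was 1.70 ± 0.23 on the log2 scale (SE, adjusted p = 0.00927), past the threshold in 8 of 9 fits with a library left out and at 0.0522 without antibiotics library 5. Nfib itself had means of 54.4 ± 3.74 CPM with antibiotics and 44.4 ± 5.71 CPM in control, a difference of 0.30 ± 0.10 that did not pass (adjusted p = 0.137).

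Gm14097 (chromosome 2, 132694432 to 132698523), which RefSeq types as a pseudogene, has an exon antisense to Shld1, a subunit of the shieldin complex of DNA repair. It measured 7.44, 7.19, 8.67 and 9.67 CPM with antibiotics, against 2.37, 3.1, 5.06, 2.13 and 2.9 CPM in control. The control library 3 value was the highest of its group and still below all antibiotics libraries, and the change was 1.42 ± 0.22 (adjusted p = 0.014). Shld1 had a difference of 0.26 ± 0.12 (adjusted p = 0.254), with means of 7.6 ± 0.437 CPM with antibiotics and 6.35 ± 0.891 CPM in control.

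The other 4 antisense RNAs that rose changed by less. B630019A10Rik (chromosome 16, 23175280 to 23224446) ends 294 bp before St6gal1, the enzyme that adds sialic acid to secreted glycoproteins of the liver. It reached 42.6, 33.8, 35.4 and 35.9 CPM with antibiotics, against 26.1, 25.7, 21, 23 and 17.1 CPM in control libraries 1 to 5, without overlap (0.71 ± 0.12, adjusted p = 0.0183). St6gal1 had the opposite sign, at -0.28 ± 0.10, and did not pass (adjusted p = 0.152). For D130020L05Rik, which starts within the gene of the protein phosphatase 4 subunit Ppp4r3a on the other strand, the levels were 9.08, 7.47, 8.39 and 7.67 CPM with antibiotics and 5.5, 5.19, 4.72, 4.71 and 6.38 CPM in control. That change was 0.62 ± 0.12 (adjusted p = 0.024), while Ppp4r3a differed by 0.24 ± 0.08 (adjusted p = 0.166).

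Gm16157 was the only RNA among the 16 whose nearest protein-coding gene also passed. It lies on chromosome 7 (68266339 to 68276594), with an exon antisense to Fam169b. The antibiotics libraries had 5.55, 5.85, 7.4 and 6.1 CPM and the control libraries 4.44, 4.16, 4.57, 3.17 and 4.15 CPM, which do not overlap. Its change was 0.61 ± 0.14 (adjusted p = 0.0424) and passed in 1 of 9 fits with a library left out. Fam169b averaged 26.8 ± 2.9 CPM with antibiotics and 16.7 ± 2.12 CPM in control, a rise of 0.68 ± 0.11 (adjusted p = 0.014). The libraries were stranded, but no source used here states that strand was used in counting. Counts of the shared exon may therefore mix Gm16157 and Fam169b. The same holds for the 111 of 316 RNAs with an exon opposite an exon of another gene, 7 of the 16 among them.

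Tug1, taurine upregulated gene 1, is a widely expressed RNA first described in mouse retina; it shares its promoter region with Morc2a, a chromatin-silencing ATPase, and an exon of each overlaps. Its 9 values were 34.7, 31.9, 38.7 and 33.4 CPM in antibiotics libraries, against 23.9, 23, 29.4, 27.2 and 23.3 CPM in control libraries. Control library 3 came nearest to the antibiotics group without reaching it, and the change of 0.45 ± 0.09 was the smallest of the 15 rises (1.37-fold, adjusted p = 0.033). Morc2a had nearly the same mean in both groups, 18.6 ± 0.828 CPM with antibiotics and 17.7 ± 1.84 CPM in control (0.07 ± 0.09, adjusted p = 0.7).

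Among the intergenic RNAs, C730036E19Rik had the largest rise. RefSeq gives it the synonym lncLSTR, so it is the liver RNA described above. It lies on chromosome 1 (151138034 to 151142345), and its promoter window, from 250 bases before to 50 bases after the RefSeq start (chr1:151137784-151138083, GRCm38.p6, plus strand), is shown because that start coincides with the GENCODE start. Capitals mark each CG, of which there are 3.
C730036E19Rik: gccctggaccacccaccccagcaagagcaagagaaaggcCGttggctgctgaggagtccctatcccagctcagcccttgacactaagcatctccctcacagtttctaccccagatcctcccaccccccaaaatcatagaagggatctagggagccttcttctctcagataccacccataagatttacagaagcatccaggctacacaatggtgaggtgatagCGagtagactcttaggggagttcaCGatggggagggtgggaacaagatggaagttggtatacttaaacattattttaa

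The antibiotics libraries had 18.9, 8.08, 11.9 and 16.5 CPM of C730036E19Rik, against 4.79, 4.01, 8.43, 6.57 and 3.93 CPM in control libraries. Antibiotics library 2 was below control library 3, so the groups overlapped by 1 library each. The means were 13.8 ± 4.8 CPM and 5.54 ± 1.93 CPM (SD, n = 4 and 5), a change of 1.32 ± 0.27 on the log2 scale (adjusted p = 0.033, 3 of 9 fits with a library left out). The genes of its described pathway were looked up after its own value had been seen. Tardbp, which encodes TDP-43, had 43.6 ± 4.72 CPM with antibiotics and 43.7 ± 8.75 CPM in control (-0.01 ± 0.15, adjusted p = 0.989). None of the other genes passed: Cyp8b1 differed by 0.16 ± 0.12 (adjusted p = 0.513), Apoc2 by 0.14 ± 0.11 (adjusted p = 0.55) and Nr1h4, which encodes FXR, by 0.25 ± 0.09 (adjusted p = 0.159). Lpl, the lipase that apoC2 activates, had 11.7 ± 3.48 CPM with antibiotics and 17.7 ± 4.56 CPM in control (-0.60 ± 0.22, adjusted p = 0.168).

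A pair of intergenic RNAs lay nearest to genes of liver transcription factors. Gm31583 (chromosome 16, 24085083 to 24090089) is 96231 bp from Bcl6, a transcriptional repressor. Its levels were 25.3, 16.6, 27.2 and 21.4 CPM with antibiotics and 12.8, 8.21, 13.8, 13 and 9.76 CPM in control, with no overlap and a change of 0.97 ± 0.17 (adjusted p = 0.02). Bcl6 varied far more within groups, with 7.58, 17.2, 19.4 and 46 CPM in antibiotics libraries and 45.9, 6.98, 70, 80.7 and 7.15 CPM in control libraries. Its highest and lowest values both fell in the control group, and it did not pass (-0.86 ± 0.72, adjusted p = 0.563).

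9030622O22Rik (chromosome 2, 147944740 to 148040203) begins 2674 bp from Foxa2, a pioneer factor of hepatocytes, and runs away from it on the same strand. It averaged 10.1 ± 2.36 CPM with antibiotics and 5.96 ± 0.861 CPM in control, a rise of 0.77 ± 0.16 (adjusted p = 0.0381). Antibiotics library 2, at 6.69 CPM, lay below the highest control value. Foxa2 had means of 20.4 ± 7.44 CPM with antibiotics and 20.5 ± 8.08 CPM in control (-0.02 ± 0.30, adjusted p = 0.981).

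Gm36041 was the only one of the 316 that passed in the lower direction. It lies on chromosome 10 (122386892 to 122435033), 13466 bp before Avpr1a, the vasopressin receptor gene, on the same strand. With antibiotics it had 4.83, 4.9, 4.2 and 3.07 CPM, against 7.55, 7.15, 6.04, 7.05 and 6.09 CPM in control. All antibiotics libraries were below all controls, and the change was -0.70 ± 0.15 (adjusted p = 0.0386, 3 of 9 fits with a library left out). Avpr1a had the same sign, with 11.2 ± 1.95 CPM with antibiotics and 16.3 ± 3.57 CPM in control, and did not pass (-0.54 ± 0.16, adjusted p = 0.105). Its promoter window is shown beside those of Gm16157 and D130020L05Rik, which rose, with each CG in capitals; they lie at chr10:122386645-122386944 (plus strand), chr7:68276545-68276844 (minus strand) and chr12:101082201-101082500 (plus strand) of GRCm38.p6 and hold 1, 7 and 8 CG.
Gm36041: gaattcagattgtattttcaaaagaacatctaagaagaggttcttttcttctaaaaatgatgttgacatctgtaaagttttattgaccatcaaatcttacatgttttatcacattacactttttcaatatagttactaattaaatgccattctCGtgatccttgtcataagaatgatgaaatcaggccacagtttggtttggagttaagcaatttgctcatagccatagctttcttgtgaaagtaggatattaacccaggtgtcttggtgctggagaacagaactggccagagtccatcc
Gm16157: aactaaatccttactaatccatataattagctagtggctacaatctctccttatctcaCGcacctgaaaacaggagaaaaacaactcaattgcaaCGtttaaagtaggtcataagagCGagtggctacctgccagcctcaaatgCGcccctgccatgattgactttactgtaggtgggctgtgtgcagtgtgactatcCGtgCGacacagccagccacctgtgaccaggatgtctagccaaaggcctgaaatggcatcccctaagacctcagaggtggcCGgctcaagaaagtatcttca
D130020L05Rik: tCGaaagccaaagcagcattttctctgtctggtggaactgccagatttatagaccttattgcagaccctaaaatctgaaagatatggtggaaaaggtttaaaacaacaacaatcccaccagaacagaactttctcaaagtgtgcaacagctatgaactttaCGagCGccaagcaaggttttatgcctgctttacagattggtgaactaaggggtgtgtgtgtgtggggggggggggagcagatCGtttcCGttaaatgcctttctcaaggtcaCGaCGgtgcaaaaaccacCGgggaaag

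RefSeq windows of this kind could be placed within 100 bases of the GENCODE start for 98 of the 316 genes, 9 of the 16 among them. The number of CG in the 300 bases had a median of 9 in the 98, 6 in the 9 that passed (from 0 to 43, the highest in Lppos), 13 in all 14493 genes with such a window and 15 in the 12003 protein-coding ones. A search of both strands for the letters AGGTCA, a core of the sites that many nuclear receptors bind, found them in 4 of the 9 windows, in 20.4% of the 98 and in 15% of all. The E-box CACGTG was in 0 of the 9, in 12.2% of the 98 and in 8.25% of all. TATAAA was in 2 of the 9, in 10.2% of the 98 and in 12.1% of all, and CCAAT in 2 of the 9, in 41.8% and in 39.3%. None of these 4 letter strings contains another, and a match describes letters only.

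Gm48275 was the most abundant of the 16 and the least certain in its source. It is a single exon of 287 nt on chromosome 10 (50425044 to 50425330), and all 287 nt are found at 100% identity in Gm42428, with another close copy in Gm43305. The antibiotics libraries had 185, 216, 130 and 164 CPM and the control libraries 60.3, 72.3, 101, 133 and 96.7 CPM. Control library 4 was above antibiotics library 3, and the change was 0.91 ± 0.21 (adjusted p = 0.047, 1 of 9 fits with a library left out). Gm43305, of type processed transcript, had 2440, 2512, 1373 and 1843 CPM with antibiotics, against 684, 864, 1277, 1643 and 1258 CPM in control, and put the 9 libraries in the same order, although its difference of 0.83 ± 0.25 did not pass (adjusted p = 0.0984). Gm42428 did not keep that order, with 4.11, 6.3, 4.14 and 4.02 CPM with antibiotics and 3.95, 3.07, 3.37, 4.65 and 3.56 CPM in control. Its difference was 0.31 ± 0.17 (adjusted p = 0.371 by edgeR). How Salmon shared reads among these copies was not tested.

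The remaining 5 of the 16 rose between 1.42-fold and 2.29-fold. Gm44787, near the ubiquitin ligase adaptor gene Wsb1, had 2.55, 1.11, 3.42 and 2.56 CPM with antibiotics and 1.09, 1.06, 1.29, 1.02 and 0.807 CPM in control, so antibiotics library 2 lay within the control range (1.19 ± 0.27, adjusted p = 0.0441, and 0.0506 with limma-voom). C920006O11Rik rose by 0.94 ± 0.18 (adjusted p = 0.0286), with 2.41 ± 0.323 CPM with antibiotics and 1.26 ± 0.24 CPM in control. 4632415L05Rik, which lies 58070 bp before the ceruloplasmin gene Cp and has close copies in 2 genes, rose by 0.55 ± 0.11 (adjusted p = 0.0323). Gm5524 rose by 0.53 ± 0.11 (adjusted p = 0.033) and Lppos, which starts 81 bp from the start of the adhesion protein gene Lpp on the other strand, by 0.50 ± 0.12 (adjusted p = 0.0452). Lppos passed in 0 of 9 fits with a library left out, at adjusted p from 0.0507 to 0.138.

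Neat1 and Malat1 did not pass. Neat1 had 97, 63.6, 63.7 and 55.3 CPM with antibiotics, against 41.3, 40.4, 58.2, 49.7 and 22.1 CPM in control, and control library 3 exceeded antibiotics library 5. Its difference was 0.72 ± 0.24 (adjusted p = 0.137, and 0.038 with DESeq2). Malat1 had 210, 200, 136 and 233 CPM with antibiotics and 126, 102, 244, 173 and 83 CPM in control, with the highest value of all in control library 3 (0.42 ± 0.28, adjusted p = 0.453). Of 9 genes for proteins of paraspeckles and speckles 0 passed with edgeR or limma-voom and 1 with DESeq2 (2 at an unadjusted p under 0.05), and their median was -0.01; Sfpq and Nono, which bind Neat1, differed by -0.06 ± 0.07 and -0.07 ± 0.06.

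Among the 12 RNAs with the highest mean level, Gm48275 alone passed with edgeR. 0610005C13Rik, antisense to the mitochondrial branched-chain aminotransferase gene Bcat2, came close, with 151, 130, 156 and 161 CPM with antibiotics and 111, 105, 137, 110 and 113 CPM in control (0.38 ± 0.09, adjusted p = 0.0583, and 0.00809 with DESeq2). Control library 3 was its highest control value and the only one above an antibiotics library, and without that library it passed. Bcat2, which shares exon sequence with it on the other strand, rose by 0.51 ± 0.12 (18.4 ± 2.84 CPM with antibiotics and 13 ± 1.48 CPM in control, adjusted p = 0.0451). Gm42031 had 150, 173, 124 and 156 CPM with antibiotics, against 41.7, 67.1, 116, 114 and 86.4 CPM in control, without overlap, at 0.83 ± 0.25 (adjusted p = 0.0984, and 0.0158 with DESeq2); it shares sequence with 7 other genes. 2900097C17Rik, which lies where RefSeq places Norad, the RNA that binds Pumilio proteins, differed by -0.18 ± 0.09 (adjusted p = 0.3), and 1700020I14Rik, RefSeq's Oip5os1 or Cyrano, by 0.20 ± 0.13 (adjusted p = 0.437).

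AC102496.1, Gm20186, Gm12840 and 1810008I18Rik, the rest of that set beside Gm42418, AC160336.1 and Malat1, had adjusted p-values from 0.147 to 0.656. AC102496.1 had the largest of their differences, 1.03 ± 0.35 (adjusted p = 0.147), and was low in control library 3 (19.1 CPM). Control library 3 was the highest control for Malat1, Neat1 and Gm12840 and the lowest for AC102496.1.

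Of the RNAs with a large fold change that did not pass, Gm44427 had a difference of 1.09 ± 0.38 (adjusted p = 0.158). It measured 6.01, 12.5, 7.73 and 9.83 CPM with antibiotics and 3.82, 4.78, 0.95, 5.8 and 5.87 CPM in control, which do not overlap. In the lower direction, Gm34654 had 1.11, 3.45, 1.55 and 1.13 CPM with antibiotics and 4.2, 2.99, 2.27, 4.87 and 1.14 CPM in control (-0.82 ± 0.44, adjusted p = 0.345). Gm48799, Gm42067 and 9030616G12Rik followed at -0.71, -0.65 and -0.62, with adjusted p-values of 0.205, 0.266 and 0.182.

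RNAs that carry small RNAs in their introns or exons were counted as hosts by position on the same strand. There were 15 among the 316, 8 with microRNAs and 9 with small nucleolar or Cajal body RNAs, and 0 passed with edgeR, DESeq2 or limma-voom (3 at an unadjusted p under 0.05 with edgeR). Their median log2 fold change was 0.24. The counts report the host transcript and not the small RNA. The smallest adjusted p-values were those of Gm32624, with 1.3 ± 0.24 CPM with antibiotics and 0.779 ± 0.231 CPM in control (0.73 ± 0.25, adjusted p = 0.155), and of Snhg20 (0.52 ± 0.19, adjusted p = 0.162). Snhg6 had 6.16 ± 0.2 CPM with antibiotics and 5.24 ± 0.334 CPM in control (0.24 ± 0.09, adjusted p = 0.208). The host of Mir122, the main microRNA of hepatocytes, AC157910.3, had 4.25 ± 1.93 CPM with antibiotics and 4.55 ± 2.24 CPM in control (-0.05 ± 0.39, adjusted p = 0.968).

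The hosts of let-7, a family that restrains growth genes, and of miR-101a were 6720427I07Rik (chromosome 13, let-7a, let-7d and let-7f) and E130102H24Rik (chromosome 4). The mature RNAs are given from RefSeq (GRCm38.p6) with the seed, bases 2 to 8, in capitals, since the first 3 share 1 seed and would pair with the same sites.
mmu-let-7a-5p: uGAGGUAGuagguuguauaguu
mmu-let-7d-5p: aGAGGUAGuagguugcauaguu
mmu-let-7f-5p: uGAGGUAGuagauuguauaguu
mmu-miR-101a-3p: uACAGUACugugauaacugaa

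6720427I07Rik had 2.22, 2.17, 3.26 and 2 CPM with antibiotics and 2, 1.62, 2.3, 3.01 and 0.734 CPM in control (0.29 ± 0.32, adjusted p = 0.678). E130102H24Rik had 3.6 ± 0.515 CPM with antibiotics and 2.86 ± 1.21 CPM in control (0.32 ± 0.30, adjusted p = 0.613). Both groups overlapped for both hosts, and control library 5 was the lowest of all 9 in each. With an SE this large, a difference of the size seen in Tug1 could not be told from 0.

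Listed sets of known RNAs gave few calls. Of the small nucleolar RNA hosts of the Snhg and Gas5 kind, 15 could be tested, 5 of them among the 316, and 0 passed with edgeR, DESeq2 or limma-voom (3 at an unadjusted p under 0.05; median 0.21). Of the imprinted RNAs 6 could be tested and 0 passed with any of these tools (0 at an unadjusted p under 0.05); Kcnq1ot1, the antisense silencer of its imprinted domain and the only one of these among the 316, differed by 0.25 ± 0.23 (adjusted p = 0.597). Of 9 listed imprinted protein-coding genes that could be tested, 1 passed with edgeR, 2 with DESeq2 and 0 with limma-voom. The edgeR call was Peg10, which fell to 0.642 ± 0.126 CPM with antibiotics, against 1.48 ± 0.351 CPM in control (-1.17 ± 0.25, adjusted p = 0.0381). With edgeR, Tug1 alone passed of 7 widely expressed RNAs, and 9030622O22Rik alone of 9 listed RNAs of liver gene loci (2 of these 9 with DESeq2).

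The nearest protein-coding gene of each RNA was taken by gene body, with a distance of 0 where bodies overlap. It could be tested for 255 of the 316, and 7 of those pairs had a protein-coding gene that passed, or 2.75%, close to the 2.68% of all genes. For the 16 RNAs that passed, 14 had a tested neighbour; 1, Fam169b, passed, and 8 had the same sign as their RNA. Over all 255 pairs 142 had the same sign, or 55.7%, and Pearson's r between the log2 fold changes was 0.17, a description across gene pairs that share the 9 libraries. In the 97 pairs whose gene bodies overlap on opposite strands r was 0.41 and 64.9% had the same sign. Where such a pair shares an exon, the counts may mix both genes. In the 59 divergent pairs, which are transcribed away from each other, r was 0.01 and 42.4% had the same sign. The 18 convergent pairs, transcribed toward each other without overlap, had an r of 0.62 and 61.1% with the same sign. In the 9 pairs that overlap on the same strand r was 0.42. For same-strand pairs without overlap r was -0.03 with the RNA downstream (39 pairs) and -0.07 with it upstream (33 pairs).

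Besides Fam169b and Bcat2, neighbours that passed included Slco1a4, Gclc, Map2k3 and Sdr42e1. Gclc, the catalytic subunit for glutathione synthesis, fell to 121 ± 12 CPM with antibiotics, against 223 ± 34 CPM in control (-0.89 ± 0.12, adjusted p = 0.00768), and lies 12551 bp from Gm34654. Slco1a4, an organic anion transporter that takes up bile acids, rose by 1.07 ± 0.17 (32.3 ± 2.22 CPM with antibiotics and 15.3 ± 4.07 CPM in control, adjusted p = 0.014), and its neighbour Gm30784 had 0.50 ± 0.24 (adjusted p = 0.285). Map2k3os and Gm38416, beside Map2k3 and Sdr42e1, had differences of 0.04 ± 0.30 and 0.05 ± 0.44, while those genes rose by 0.42 ± 0.10 and 0.44 ± 0.10 (adjusted p = 0.0447 and 0.0387).

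**Figure D3:**
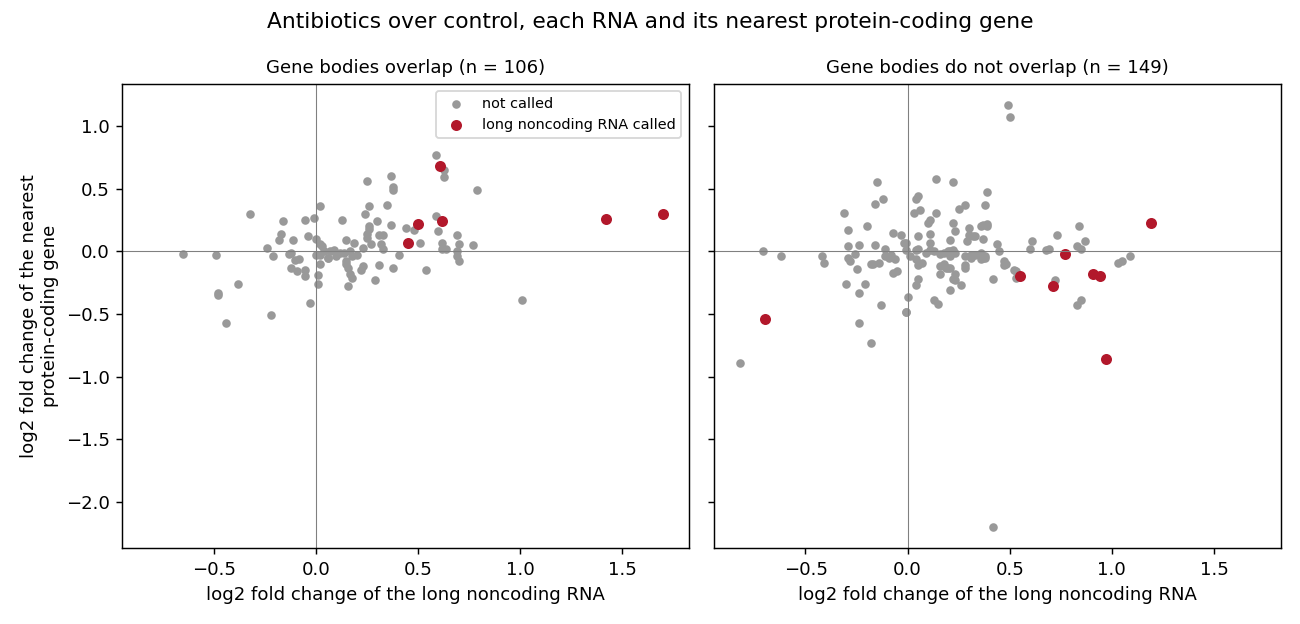
Each point is 1 long noncoding RNA with a tested nearest protein-coding gene, its own log2 fold change (x) and that of the protein-coding gene (y), antibiotics over control; gene bodies overlap at left (n = 106) and do not at right (n = 149), and red marks RNAs that passed the test. The points follow each other loosely at left (64.2% with the same sign), and Fam169b at 0.68 belongs to Gm16157 at 0.61.

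The fold changes of the 316 were displaced as a whole. Their median was 0.19 on the log2 scale, beside -0.01 for all genes tested and -0.02 for 12898 protein-coding genes, and 231 of the 316 (73.1%) lay above 0, beside 48.6% of all genes. At an unadjusted p under 0.05 there were 79 (25%, beside 18.5% of all genes), 72 higher with antibiotics and 7 lower, whereas all genes split into 9.6% higher and 8.87% lower. The displacement was found at every level: the median was 0.19 between 1 and 2 CPM, 0.14 between 2 and 5, 0.22 between 5 and 20 and 0.24 from 20 CPM, beside -0.04, -0.02, -0.01 and -0.02 for protein-coding genes in the same ranges. It was 0.22 in the antisense RNAs and 0.18 in the lincRNAs, and 0.18 in the 205 RNAs with no exon opposite another gene's. Among the 299 RNAs at 1 CPM or more in both groups it was 0.18.

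Other noncoding classes were displaced in the same direction, with medians of 0.20 in 51 bidirectional promoter RNAs, 0.21 in 36 sense intronic RNAs, 0.16 in 314 genes of type TEC (to be experimentally checked) and 0.13 in 189 processed transcripts. In 457 processed pseudogenes the median was -0.04. Long noncoding genes under 1 CPM that could be tested (375) had a median of 0.21. No scaling among those tried moved the median of the 316 outside 0.19 to 0.21.

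**Figure D4:**
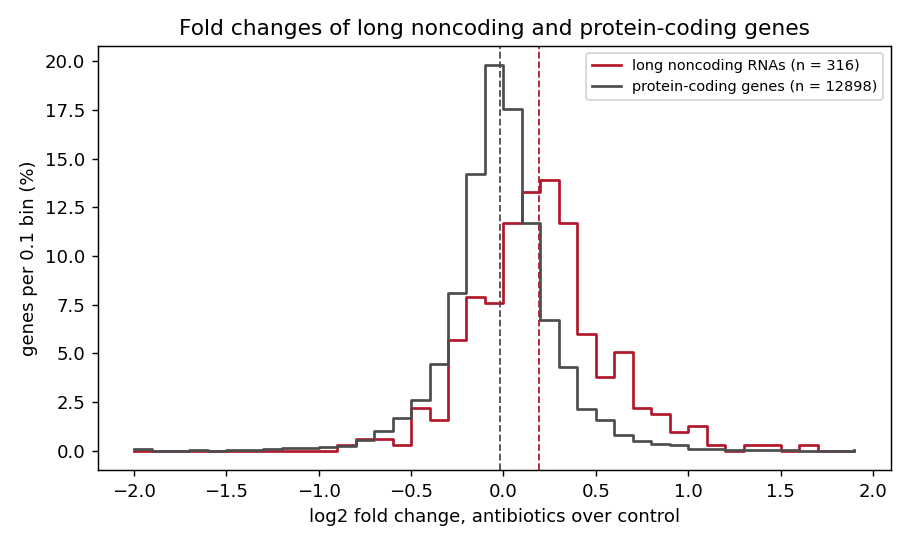
The percentage of genes in each bin of 0.1 of log2 fold change (antibiotics over control) is drawn for the 316 long noncoding RNAs (red) and 12898 protein-coding genes (grey), with dashed lines at the medians; values beyond 2 either way are put in the end bins. The red line sits to the right, with its median at 0.19 beside -0.02.

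By library, the median deviation of the 316 from the control mean was 0.19, 0.17, 0.18 and 0.18 in antibiotics libraries 1, 2, 3 and 5. In control libraries 1 to 5 it was -0.02, -0.00, 0.16, 0.08 and -0.18. The 4 antibiotics libraries were thus nearly equal, while control libraries 3 and 5 stood apart in opposite directions, and control library 3 was close to the antibiotics group. Leaving out control library 5 lowered the median of the 316 to 0.12, and leaving out control library 3 raised it to 0.26.

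The summed level of Neat1 and Malat1, RNAs retained in the nucleus, was 307, 263, 200 and 288 CPM in antibiotics libraries and 167, 142, 302, 223 and 105 CPM in control libraries. It shared with the median its highest control in library 3 and its lowest in library 5. The mean deviation of 13 mitochondrially encoded mRNAs, of which 0 passed with edgeR, DESeq2 or limma-voom (4 at an unadjusted p under 0.05), was 0.34, 0.58, 0.41 and -0.06 with antibiotics and 0.08, -0.14, 0.27, -0.05 and -0.16 in control. Control library 3 was the highest control here too, and antibiotics library 5 was below control library 1. The part of either measure in the displacement was not tested, and in whole liver more RNA per cell and more cells of a kind cannot be told apart.

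**Figure D5:**
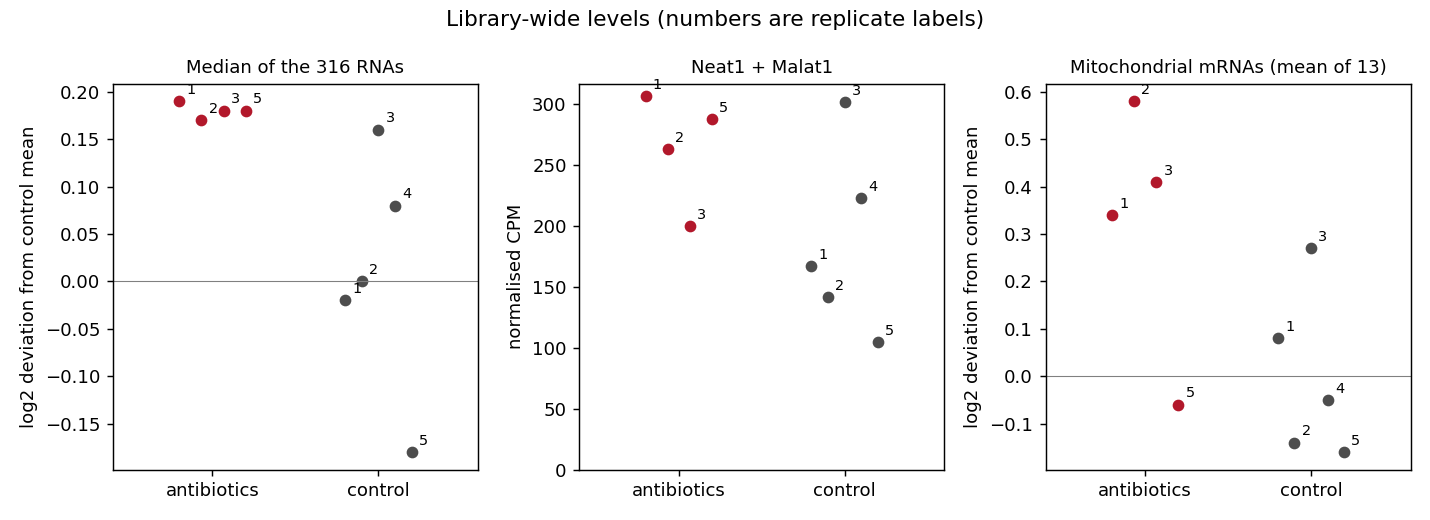
Each panel gives 1 value per library, with antibiotics libraries (red) left of control libraries (grey) and replicate numbers beside the points: the median log2 deviation of the 316 RNAs from the control mean, the summed CPM of Neat1 and Malat1, and the mean log2 deviation of 13 mitochondrial mRNAs. In the first panel the antibiotics libraries lie between 0.17 and 0.19 and control libraries 3 and 5 at 0.16 and -0.18.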

How the data were processed

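Liver RNA of 9 libraries was sequenced from stranded poly(A) libraries, per the labels' protocols. The authors deposited estimated counts per gene. Salmon and build GRCm38 are named in the submitters' processing notes, and no source used here gives the version, the settings or the annotation release. The deposited values were already whole numbers and all 54393 gene identifiers occur in GENCODE M21, which supplied types and positions. Salmon can split reads among copies of a sequence, and poly(A) selection misses RNAs without a tail.

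Genes were kept by filterByExpr of edgeR 4.0.16 in R 4.3.3 (minimum count 10, minimum total 15), which left 14873 genes, all 316 long noncoding RNAs among them. Counts were scaled by TMM factors and tested with edgeR's quasi-likelihood F test, group as the only term, antibiotics over control, Benjamini-Hochberg adjustment over all 14873 genes and a threshold of 0.05. The biological coefficient of variation was 16.7%. The test was checked on simulated counts, 4 against 5 libraries. The changed genes were drawn from all genes tested, whose median level was 9.92 CPM, against 2.86 CPM in the 316 RNAs. Recovery among the 316 alone was not measured. Over the genes drawn, the test recovered 32% of 1.5-fold, 72% of 2-fold, 88% of 3-fold and 96% of 4-fold changes. Of its 155 calls 11 were false, that is, outside the genes drawn. In a separate run of counts without any genes drawn, 0 genes were called. Library deviations used log2(CPM + 0.5). Floors for low counts cover counting error only.

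The RNAs, the gene lists and the rule for names were chosen with earlier results of these data known. The rule names the RNAs that passed, the 12 most abundant, the 5 largest changes each way, list members, neighbours and the 3 genes either side of the threshold; genes outside it are said to be chosen later. The pathway genes of lncLSTR and the copies of Gm48275, with the gene opposite Gm42418, were chosen later. Some genes under the rule are not reported here. Alternatives were RLE and upper-quartile factors, library totals without the 10 most abundant genes, DESeq2 1.42.0, voom of limma 3.58.1, other filters, thresholds and types, thinning to 15422891 counts, a block on replicate number and leaving out every library in turn. Close copies (95% identity or more across 200 nt) were sought in all M21 transcripts by BLAST+ 2.17.0, and 10 of 48 named RNAs and 2 of the 16 that passed had one. Chi-square tests of the counts found no pair of libraries within sampling noise (at least 18.8 per degree of freedom inside a group).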

Additional observations from a re-analysis of the deposited data

Results flagged for a closer look

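Among 96 groups of 4 or 5 libraries examined, 3 held a library whose gap to its nearest fellow exceeded Dixon's 95% critical value, and chance alone flags about 1 in 20 groups. Gm42418 had 8281 CPM in antibiotics library 5, against 1223 to 1306 CPM in the other antibiotics libraries. In control library 3, 0610005C13Rik had 137 CPM, against 105 to 113 CPM in the other controls, and 4930404H11Rik had 1.59 CPM, the highest of its group.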

How the results depend on the processing

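Across the scalings (RLE, upper quartile, totals without the 10 most abundant genes) all 16 RNAs passed. DESeq2 called 32 RNAs (31 higher) and 976 genes in all, with 4 called neighbours, and a threshold of 0.10 gave 33 RNAs (31 higher, 2 lower) and 937 genes. Without a filter on low counts there were 17 RNAs and 0 called neighbours. Thinning all libraries to the smallest total gave 12 RNAs, all but 1 of them among the 16. Lowering the level to 0.5 CPM gave 2 lower calls, and restricting to RNAs without an opposite exon left 9 (8 higher). With each library left out, the 316 gave between 0 and 18 calls, 0 to 17 of them higher and 0 to 1 lower, all genes between 36 and 455, and called neighbours between 0 and 3. The libraries whose omission moved the count of RNAs by more than 1.5 times were antibiotics libraries 1, 3 and 5 and control libraries 1, 2 and 4 (2, 1, 0, 7, 5 and 6 RNAs called).

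Same-numbered libraries did not deviate together (correlations of -0.00218, -0.0565, 0.0322 and 0.103). No label says what the replicate numbers stand for, and whether same-numbered libraries were handled together is not known. With the replicate block, which drops control library 4, 9 RNAs passed (9 higher, 0 lower), 5 of them among the 16, with 179 genes in all and 0 called neighbours; the same 8 libraries without the block gave 6 RNAs.

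Of 863 recomputed fold changes of 48 named RNAs, 741 kept direction and side of the threshold, 107 no longer passed, 5 came to pass and 10 changed sign. None of the 10 belonged to an RNA that had passed. They were Gm42418 (-0.48 without antibiotics library 5; -0.48 to 1.04 over the fits with a library left out), Mir17hg (0.15 when thinned), Ftx (-0.02 to 0.21 over those fits, lowest without antibiotics library 1), Snhg18 (-0.29 to 0.00, highest without antibiotics library 1), Hnf4aos (-0.03 when thinned; -0.07 to 0.21 over those fits, with -0.05 without antibiotics library 1 and -0.06 and -0.07 without control libraries 3 and 5) and Pvt1 (-0.11 with the replicate block; -0.10 to 0.18 over those fits, lowest without control library 4). The causes were not tested.

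Depth limits the scarce RNAs most: 3 counts are worth 0.195 CPM in the shallowest library and 0.0507 CPM in the deepest.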
